A study of Homo sapiens with 18 samples.

Results

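NRF2 and its antioxidant target genes were described here as a set of 9 transcripts, chosen by name: NFE2L2, which encodes NRF2, its repressor KEAP1, and the target genes NQO1, HMOX1, GCLC, GCLM, TXNRD1, SRXN1 and OSGIN1. They are 9 of the 28266 gene rows of the count table, and all 9 were among the 14341 genes with enough counts to be tested. The set was chosen with earlier results of these data known, so its shares beside those of all genes are descriptive. NRF2 is a transcription factor that KEAP1, an adaptor of the CUL3 ubiquitin ligase, marks for degradation in unstressed cells. Oxidants and electrophiles modify KEAP1, and NRF2 then accumulates, pairs with a small MAF protein and binds antioxidant response elements in DNA, so that its activity is set largely at the level of the protein and not of the NFE2L2 transcript. BACH1 competes for the same elements, above all at HMOX1, until haem binds BACH1 and releases it, and the autophagy receptor SQSTM1 (p62) can hold KEAP1 away from NRF2. The RNA counts described here measure transcripts only, and no protein was measured in these files.

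The cells sequenced, by poly(A) RNA, were IMR90 ER:RAS, a line of human lung fibroblasts that carries oncogenic RAS fused to an oestrogen receptor domain, so that the drug 4OHT switches RAS on and drives the cells into oncogene-induced senescence. Every group carried the transgene, and 1 cell line was used throughout. Cells received 100 nM 4OHT (senescent) or DMSO (control), were cultured for 7 days, and were then given DMSO or an inhibitor of N-myristoyltransferase, the enzyme that attaches the lipid myristate to proteins, for 3 days until collection on day 10. IMP1088 was given at 300 nM, and DDD86481, named PCLX001 in some column names, at 1.5 µM, and the 6 groups of control or senescent cells with DMSO, IMP1088 or DDD86481 held 3 libraries each. The study followed these inhibitors as agents that kill senescent cells, so the libraries of treated senescent cells came from the cells still present after 3 days. In bulk RNA, fewer cells of a kind and less RNA per cell cannot be told apart.

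Levels are given in CPM, read counts brought to a common library size by TMM scaling, in the order of replicates 1, 2 and 3. Library totals ran from 16143716 to 23189950 counts, and a count of 0 allows 3 counts, or 0.121 to 0.187 CPM. P-values are from edgeR's quasi-likelihood test with Benjamini-Hochberg adjustment over the 14341 genes, log2 fold changes are given ± SE, and a gene is said to rise or fall where its adjusted p was under 0.05. Of 8 genes that check the model, 6 rose and 2 fell in senescence. In senescent cells 3 rose and 3 fell with each inhibitor (37.5% each). Among all genes, 20.6% and 23.9% did so with IMP1088 and 20.1% and 23.1% with DDD86481. In control cells 3 rose (37.5%) and 2 fell (25%) with each inhibitor. Among all genes, 16.3% and 17.4% did so there with IMP1088 and 17.8% and 18.7% with DDD86481. The proliferation gene MKI67 was at 12.9 to 32.2 CPM in control and at 0.11 to 0.187 CPM in senescent cells with DMSO, and HRAS, whose counts cannot separate the transgene from the endogenous gene, was at 3031 to 3248 and 5312 to 6062 CPM. CDKN1A (p21) was 377 ± 34.6 CPM in control and 2126 ± 159 CPM in senescent cells with DMSO, and IL1B was 1.48 ± 0.61 and 6639 ± 295 CPM (SD, n = 3). In control cells MKI67 fell, to 3.63 ± 0.685 and 3.94 ± 1.7 CPM with IMP1088 and DDD86481. HSPA5 (BiP) and DDIT3 (CHOP), of the unfolded protein response that the study followed, rose with each inhibitor in both states. In senescent cells HSPA5 went from 1171 ± 82.6 CPM to 4648 ± 152 and 3842 ± 303 CPM. MARS1 on the opposite strand overlaps 27.2% of the exonic bases of DDIT3. The part of these check genes in the changes of the 9 transcripts was not tested. All 10 fibroblast markers lay above the level that a count of 0 allows in each group, with a summed level of 27730 to 39839 CPM in control and 23079 to 25240 CPM in senescent cells with DMSO. Of the 10, 8 fell in senescence (80%, beside 36% of all genes), among them DCN (-8.62, adjusted p = 3.72e-21), and 1 rose (10%, beside 32.5%). The summed level of 14 epithelial, endothelial and immune markers was 17.4 to 28.4 CPM in the 3 groups of control cells and 101 to 171 CPM in those of senescent cells, and 6 to 9 of the 14 lay at or under the level that a count of 0 allows in all 3 libraries of a group. CD68 made up most of that sum, at 17.5 ± 2.43 CPM in control and 132 ± 15.8 CPM in senescent cells with DMSO, with 81.6% of its exonic bases shared with an unnamed gene on the same strand. The leukocyte gene PTPRC, picked after its values were seen, stayed at or below 0.392 CPM in every library. Of the 6 of these markers with enough counts to be tested, 4 rose (66.7%, beside 32.5% of all genes) and 0 fell (beside 36%) in senescence. The 4 were CD68 and the endothelial genes CDH5, PECAM1 and VWF. CDH5 was 0.0134 ± 0.0232 CPM in control, under the level that a count of 0 allows, and 1.77 ± 0.261 CPM in senescent cells with DMSO, PECAM1 was 0.21 ± 0.134 and 2.77 ± 0.417 CPM, and VWF was 1.12 ± 0.465 and 5.82 ± 0.844 CPM. With IMP1088 in senescent cells CDH5 and VWF fell (33.3% of the 6, beside 23.9% of all genes), and with DDD86481 CDH5 fell (16.7%, beside 23.1%). The part of such cells in the results was not tested. On the third principal component, with 4.1% of the variance, control DMSO replicate 3 scored -57.3 and its replicates 1 and 2 scored -14.8 and -27.8, and it differed from them in its counts by more than any other pair of libraries within a group.

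Several targets of NRF2 were higher in senescent cells, and the transcript of NRF2 itself was lower. In senescent cells with DMSO, TXNRD1, SRXN1, GCLM and NQO1 were 2.09 to 4.12 times as high as in control cells, and NFE2L2 was 2.03-fold lower. Of the 9 transcripts, 5 rose (55.6%, beside 32.5% of all genes tested) and 1 fell (11.1%, beside 36%). Their median log2 fold change was 0.27, beside -0.05 over all genes tested. KEAP1 was the fifth to rise, by a small amount, and HMOX1, GCLC and OSGIN1 did not pass the test.

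**Figure D1:**
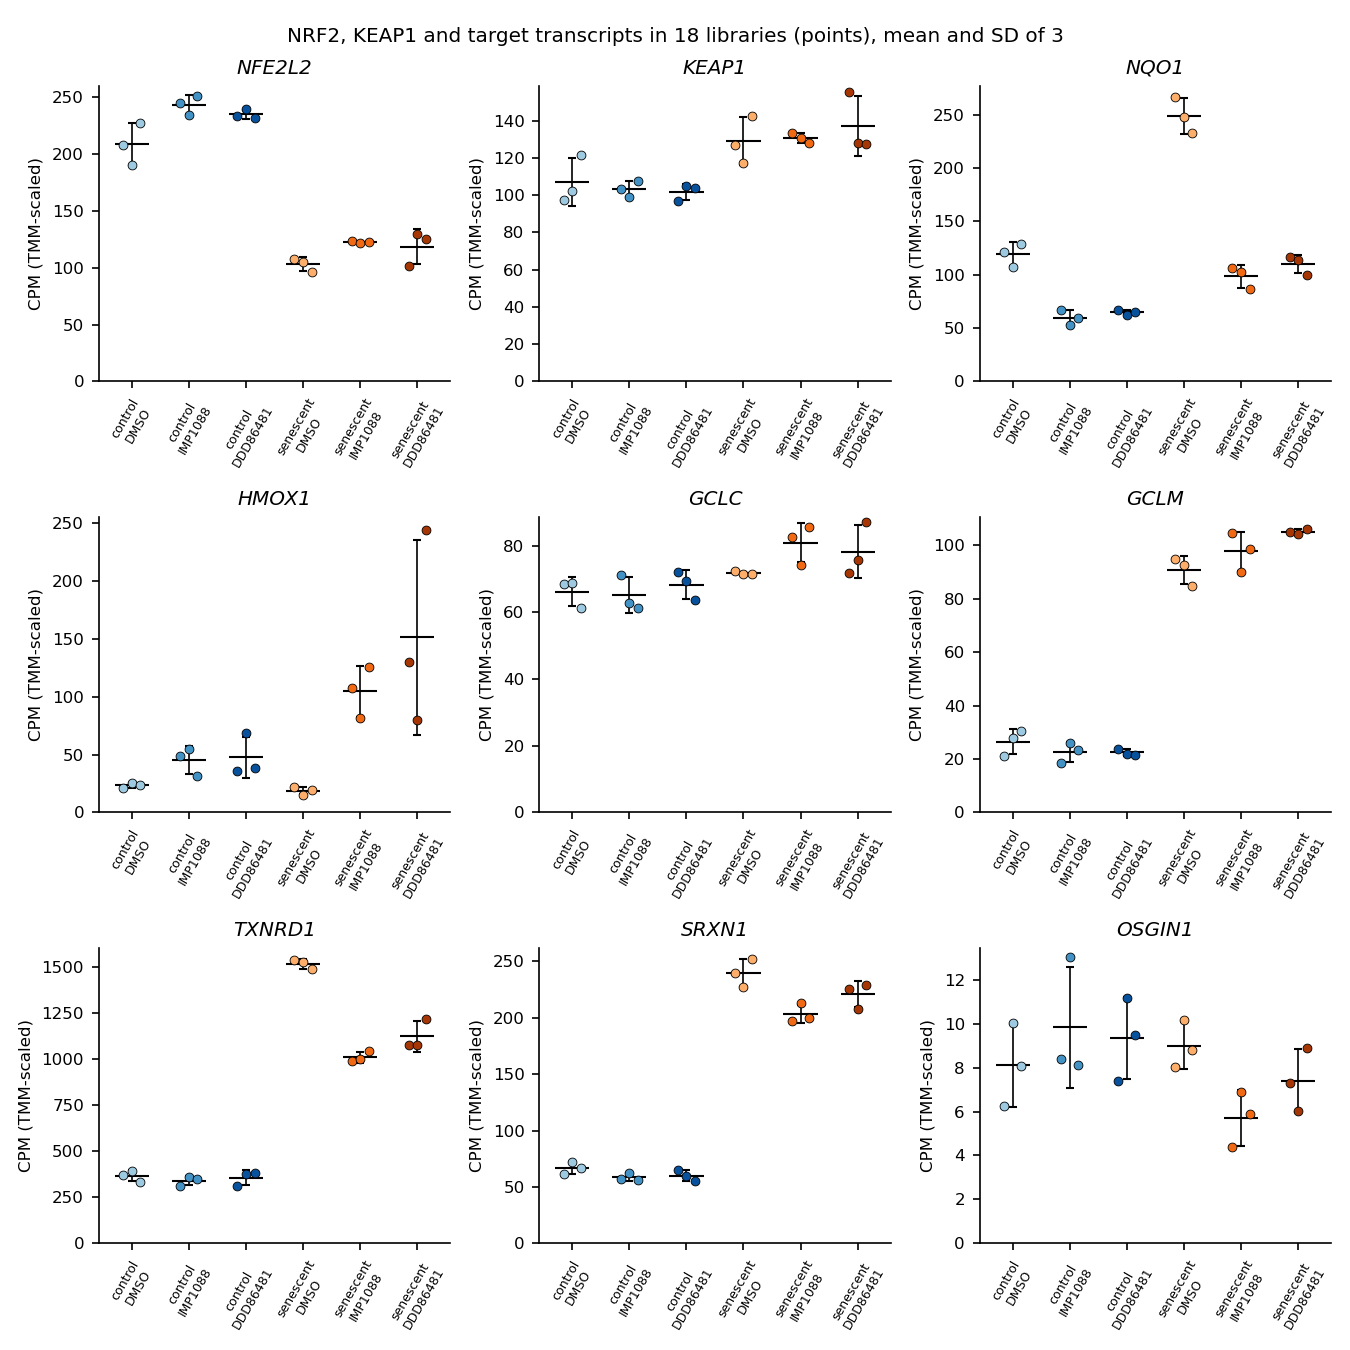
Level in CPM (y axis, from 0, own scale in each panel) of the 9 transcripts in the 6 groups (x axis), with each library as a point and the mean and SD of 3 as lines. HMOX1 stood at 15.4 to 21.6 CPM in senescent cells with DMSO and at 80.1 to 244 CPM with either inhibitor, whereas NQO1 stood at 233 to 266 CPM and at 86.4 to 116 CPM.

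NFE2L2 lies at chr2:177230303-177264727 (GRCh38.p14, RefSeq). Its transcript stood at 208, 191 and 228 CPM in control cells and at 108, 105 and 96.2 CPM in senescent cells, both with DMSO. No senescent library reached the lowest control library, and the fall in senescence passed the test (log2 fold change -1.02 ± 0.093, adjusted p = 5.17e-09). KEAP1, at chr19:10486125-10503356, was measured at 97.2, 102 and 122 CPM in control and 127, 117 and 143 CPM in senescent cells, so that the groups overlapped. Its rise of 0.27 ± 0.10 (adjusted p = 0.0217) was lost when control DMSO replicate 1 or 2 or senescent DMSO replicate 3 was left out (adjusted p up to 0.12) and with upper quartile scaling (0.11, adjusted p = 0.333). In the annotation, 23.4% of the exonic bases of NFE2L2 overlap HNRNPA3 on the opposite strand, and the strand setting of the counting is not given in the sources used here.

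GCLC and GCLM encode the catalytic and the modifier subunit of glutamate-cysteine ligase, the rate-limiting enzyme of glutathione synthesis. The subunits differed in senescence. GCLM (chr1:93885199-93909430) was at 21.2, 27.8 and 30.3 CPM in control and at 94.8, 92.7 and 84.9 CPM in senescent cells with DMSO, with no overlap, a 3.44-fold rise (1.78 ± 0.12, adjusted p = 7.52e-11). GCLC (chr6:53497341-53545101) was at 68.6, 68.8 and 61.3 CPM and at 72.3, 71.5 and 71.5 CPM. These groups did not overlap either, but the difference of 0.12 ± 0.094 did not pass the test (adjusted p = 0.284) and turned to -0.04 with upper quartile scaling.

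TXNRD1, the cytosolic thioredoxin reductase, had the highest level of the 9 per length of transcript and, with a 4.12-fold rise, the largest fold change of the 9 in senescence. It was at 374, 395 and 335 CPM in control and at 1536, 1524 and 1488 CPM in senescent cells with DMSO (2.04 ± 0.098, adjusted p = 1.96e-13, chr12:104215779-104350307). SRXN1, sulfiredoxin, which restores over-oxidised peroxiredoxins, was at 61.7, 71.8 and 67.2 CPM in control and at 239, 227 and 252 CPM in senescent cells (1.84 ± 0.089, adjusted p = 2.08e-13, chr20:646615-653200). For both genes the lowest senescent library stood far above the highest control library. An unnamed annotated gene on the same strand shares 90.7% of the exonic bases of SRXN1, so its reads may be split with that gene.

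NQO1 is a quinone reductase and HMOX1 is haem oxygenase 1, which breaks down haem to biliverdin, carbon monoxide and iron. In senescence NQO1 (chr16:69709401-69726560) went from 122, 107 and 129 CPM to 266, 247 and 233 CPM, with no overlap (1.06 ± 0.10, adjusted p = 1.59e-08). An unnamed gene on the opposite strand overlaps 19.4% of its exonic bases. HMOX1 (chr22:35381096-35394207) was at 21.3, 25.7 and 23.3 CPM in control and at 21.6, 15.4 and 19 CPM in senescent cells with DMSO, and these groups overlapped (-0.33 ± 0.32, adjusted p = 0.366). OSGIN1 (chr16:83953240-83966332), named for the growth inhibition that it can cause and induced by oxidative stress, was the least abundant of the 9, at 6.25, 10 and 8.06 CPM in control and 8.03, 10.1 and 8.79 CPM in senescent cells (0.15 ± 0.22, adjusted p = 0.562).

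Antioxidant response elements share a core of letters, so the 250 bases before each annotated start were searched on both strands for TGACNNNGC. RefSeq promoter windows (GRCh38.p14) matched 8 of the 9 genes, and 3 of these 8 (KEAP1, GCLM and TXNRD1) held the letters, beside 14.4% of the 18292 genes of the count table with a promoter window. The stretches below are shown because GCLM and TXNRD1 rose in senescence and KEAP1 rose least, with the matched letters in capitals on the strand of the gene. None of these matches overlapped an AP-1 site (TGACTCA or TGAGTCA), and a match is a description of the letters, not evidence of binding.
GCLM chr1:93909445-93909474, minus strand: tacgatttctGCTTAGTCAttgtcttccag
TXNRD1 chr12:104215670-104215699, plus strand: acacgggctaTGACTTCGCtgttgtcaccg
TXNRD1 chr12:104286920-104286949, plus strand: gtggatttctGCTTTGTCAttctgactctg
KEAP1 chr19:10502806-10502835, minus strand: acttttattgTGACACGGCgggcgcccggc
KEAP1 chr19:10502783-10502812, minus strand: gcccggctctGCTTAGTCAtggtgacctgc
The capitals of GCLM and of the second KEAP1 stretch are the same 9 letters. The promoter windows of NFE2L2, NQO1, GCLC, SRXN1 and OSGIN1 did not hold these letters, which says nothing of elements further away.

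Among senescent cells, IMP1088 moved HMOX1 and NQO1 in opposite directions. HMOX1 was 5.61 times as high as with DMSO, while NQO1 was 2.53-fold lower and TXNRD1 1.50-fold lower. Of the 9 transcripts, 2 rose (22.2%, beside 20.6% of all genes tested) and 4 fell (44.4%, beside 23.9%), with a median log2 fold change of 0.02, beside -0.04 over all genes. The share that rose lay near the background, and 3 of the 6 calls depended on single libraries.

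HMOX1 was at 107, 81.3 and 125 CPM with IMP1088 in senescent cells, all above the highest DMSO library at 21.6 CPM (2.49 ± 0.32, adjusted p = 3.45e-06). NQO1 was at 107, 102 and 86.4 CPM, all below the lowest DMSO library at 233 CPM (-1.34 ± 0.11, adjusted p = 6.33e-09). None of these levels of NQO1 exceeded the lowest library of control cells with DMSO, at 107 CPM. TXNRD1 was at 987, 998 and 1045 CPM, below every DMSO library of senescent cells and above every library of control cells (-0.59 ± 0.095, adjusted p = 4.46e-05).

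The other calls of IMP1088 in senescent cells were small. NFE2L2 was at 124, 122 and 122 CPM, a rise of 0.25 ± 0.092 (adjusted p = 0.0318) that was lost in the 5 fits without senescent DMSO replicate 2 or 3 or any 1 of the IMP1088 libraries (adjusted p up to 0.127). SRXN1 was at 197, 213 and 200 CPM, a fall of -0.24 ± 0.086 (adjusted p = 0.0303) that was lost without senescent DMSO replicate 1 or 3 or senescent IMP1088 replicate 1 or 3 (adjusted p up to 0.108). Without a filter on low counts, neither of these 2 calls passed. OSGIN1 was at 4.37, 6.87 and 5.89 CPM, below every senescent DMSO library (-0.66 ± 0.23, adjusted p = 0.0247), and its call was lost without senescent DMSO replicate 2 or senescent IMP1088 replicate 1 or 3 (adjusted p up to 0.128). GCLM, at 105, 89.8 and 98.7 CPM, and GCLC, at 82.7, 74.3 and 85.7 CPM, did not pass (0.11 ± 0.12 with adjusted p = 0.497, and 0.17 ± 0.094 with adjusted p = 0.145), nor did KEAP1 (0.02 ± 0.10, adjusted p = 0.895).

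DDD86481 in senescent cells gave a rise of HMOX1 and falls of NQO1 and TXNRD1. Of the 9, 1 rose (11.1%, beside 20.1% of all genes tested) and 2 fell (22.2%, beside 23.1%), so neither share exceeded the background, and the median log2 fold change was 0.09, beside -0.04. HMOX1 was at 130, 80.1 and 244 CPM, 8.10 times the level with DMSO (3.02 ± 0.33, adjusted p = 3.9e-07). Its SD of 83.9 CPM was 55.5% of the mean, and without replicate 3 the log2 fold change was 2.49. NQO1 was at 116, 113 and 100 CPM (-1.18 ± 0.10, adjusted p = 3.26e-08), and TXNRD1 at 1077, 1074 and 1219 CPM (-0.43 ± 0.095, adjusted p = 0.000957), each below the senescent DMSO libraries. SRXN1, at 226, 207 and 229 CPM, overlapped the DMSO libraries (-0.12 ± 0.086, adjusted p = 0.288). The comparisons of both inhibitors used the same 3 DMSO libraries. The fibroblast markers moved with these changes: their summed level was 16083 to 18276 CPM with IMP1088 and 16369 to 18382 CPM with DDD86481, below the 23079 to 25240 CPM of senescent cells with DMSO. With each inhibitor 2 of the 10 rose (20%, beside 20.6% and 20.1% of all genes) and 6 fell (60%, beside 23.9% and 23.1%). In control cells the sums were 34858 to 39707 and 36070 to 42439 CPM. There 2 of the 10 were higher with each inhibitor (20%, beside 16.3% and 17.8% of all genes) and 3 lower (30%, beside 17.4% and 18.7%). The part of these markers in the changes of the 9 transcripts was not tested.

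**Figure D2:**
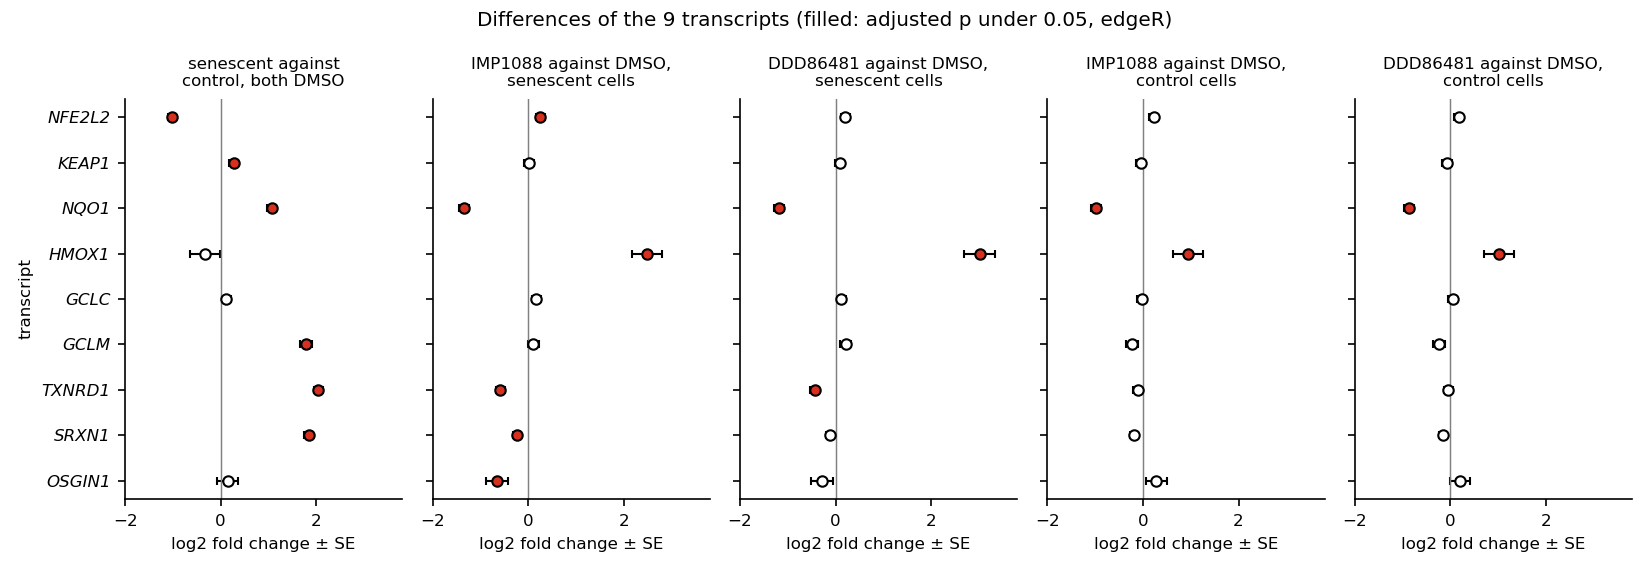
Log2 fold change with its SE (x axis) of the 9 transcripts (y axis) in 5 comparisons (panels), with points filled where the adjusted p was under 0.05. In senescence TXNRD1, SRXN1 and GCLM lay at 1.78 to 2.04, and with an inhibitor HMOX1 lay to the right of 0 and NQO1 to the left in all 4 panels.

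In control cells the same pair passed the test with each inhibitor. HMOX1 was at 48.5, 55 and 31.8 CPM with IMP1088 and at 35.4, 68.3 and 38.7 CPM with DDD86481, in each case above the control DMSO libraries, which reached 25.7 CPM. The rises were 0.94 ± 0.31 (adjusted p = 0.023) and 1.01 ± 0.31 (adjusted p = 0.0145). The call for IMP1088 was lost without control IMP1088 replicate 1 or 2 (adjusted p up to 0.0944), and that for DDD86481 without control DDD86481 replicate 2 (0.66, adjusted p = 0.116). NQO1 was at 66.9, 52.8 and 59.8 CPM with IMP1088 (-0.99 ± 0.11, adjusted p = 6.97e-07) and at 66.7, 62.7 and 65.1 CPM with DDD86481 (-0.88 ± 0.10, adjusted p = 3.33e-06), all below the lowest DMSO library at 107 CPM.

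So 1 of the 9 rose and 1 fell with each inhibitor in control cells (11.1% each), beside 16.3% and 17.4% of all genes with IMP1088 and 17.8% and 18.7% with DDD86481. The medians of the 9 were -0.05 and -0.04, beside 0 over all genes to 2 decimals. NFE2L2 was at 245, 235 and 252 CPM with IMP1088 and at 234, 240 and 232 CPM with DDD86481, above all control DMSO libraries in each case, and did not pass (0.22 ± 0.091 with adjusted p = 0.0653, and 0.17 ± 0.091 with adjusted p = 0.149). Leaving out control DMSO replicate 3, the library that stood apart, brought NFE2L2 with IMP1088 to 0.29 and adjusted p = 0.0201. The senescence-raised transcripts TXNRD1, SRXN1 and GCLM differed by -0.23 to -0.04 and did not pass in control cells with either inhibitor.

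The interaction term compares the effect of an inhibitor in senescent cells with its effect in control cells. For HMOX1 it was 1.54 ± 0.44 with IMP1088 (adjusted p = 0.0138) and 2.00 ± 0.44 with DDD86481 (adjusted p = 0.0023), so the fold rise in senescent cells was 2.91 and 4.01 times that in control cells. Both calls were kept in each of the 12 fits that left out 1 library. For TXNRD1 the interaction was -0.48 ± 0.13 with IMP1088 (adjusted p = 0.013), lost without control IMP1088 replicate 2 (adjusted p = 0.0533), and -0.39 ± 0.13 with DDD86481 (adjusted p = 0.0338).

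That of TXNRD1 with DDD86481 was lost in 7 of the 12 fits that left out 1 library, namely control DMSO replicate 3, control DDD86481 replicate 2 or 3, senescent DMSO replicate 1 or 2, or senescent DDD86481 replicate 1 or 2 (adjusted p up to 0.135). OSGIN1 had an interaction of -0.94 ± 0.31 with IMP1088 (adjusted p = 0.0329), lost in 6 of 12 fits, without control DMSO replicate 1, control IMP1088 replicate 2, senescent DMSO replicate 2 or 3, or senescent IMP1088 replicate 1 or 3 (adjusted p up to 0.133). For NQO1 the difference between the states did not pass with IMP1088 (-0.35 ± 0.15, adjusted p = 0.0872), and leaving out control DMSO replicate 3 brought it to -0.40 with adjusted p = 0.0449. In all, 1 of the 9 had a higher and 2 a lower interaction with IMP1088, beside 12.1% and 14.2% of all genes, and 1 had a higher and 1 a lower interaction with DDD86481, beside 14.4% and 15.9%.

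**Figure D3:**
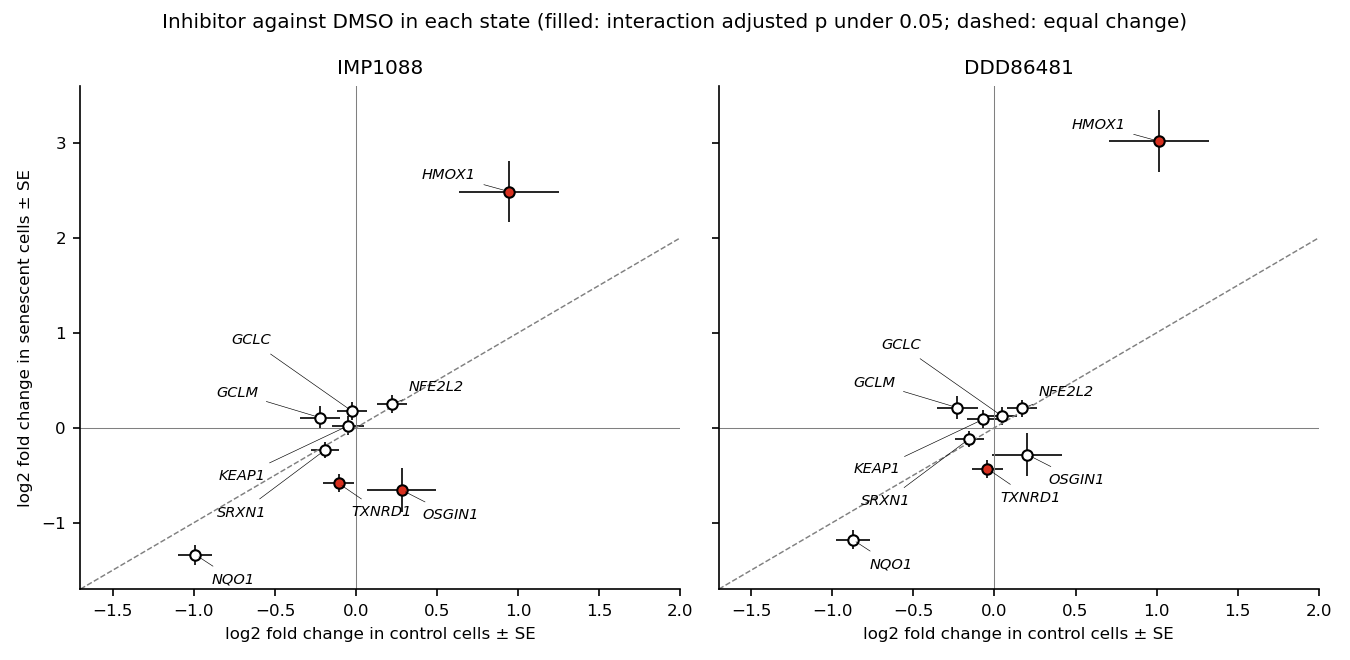
Log2 fold change against DMSO in control cells (x axis) and in senescent cells (y axis) for each inhibitor (panels), with SE bars, a dashed line of equal change, and points filled where the interaction had an adjusted p under 0.05. HMOX1 lay above the line with both inhibitors, and TXNRD1 lay below it.

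The inhibitors were given at different doses, 300 nM and 1.5 µM, so their values stand side by side and a difference would not compare the compounds dose for dose. In senescent cells HMOX1 was 105 ± 22.1 CPM with IMP1088 and 151 ± 83.9 CPM with DDD86481, and NQO1 was 98.4 ± 10.6 and 110 ± 8.69 CPM (SD, n = 3). In control cells HMOX1 was 45.1 ± 12 and 47.5 ± 18.1 CPM, and NQO1 was 59.8 ± 7.05 and 64.8 ± 2.01 CPM. In the fit of IMP1088 against DDD86481, 0% of genes passed in either direction in senescent and in control cells, with edgeR and with DESeq2. With edgeR, 570 and 141 of the 14341 genes had an unadjusted p under 0.05, fewer than that threshold passes where no gene differs. The interval for HMOX1 in senescent cells ran from -1.14 to 0.08 and for NQO1 from -0.38 to 0.06 (log2, 95%), so differences of that size between the treated groups were not excluded by these libraries.

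Levels can be set side by side between genes only per length, here as CPM per kilobase of annotated exon. In senescent cells with DMSO the order of the 9 was TXNRD1 (226 ± 3.74), SRXN1 (94.6 ± 4.96), NQO1 (83.7 ± 5.65), KEAP1 (36.1 ± 3.58), GCLM (16.7 ± 0.958), GCLC (8.33 ± 0.053), HMOX1 (8.09 ± 1.36), NFE2L2 (6.88 ± 0.406) and OSGIN1 (1.62 ± 0.193). The libraries of GCLC and HMOX1 overlapped, as did those of HMOX1 and NFE2L2, and the other neighbours were apart in every library. In control cells with DMSO TXNRD1 led as well, at 54.8 ± 4.55, and NQO1 followed at 40 ± 3.76, ahead of KEAP1 at 29.9 ± 3.62 and SRXN1 at 26.5 ± 2.01, which overlapped. Annotated exons that a cell does not use lower such a level, which bears most on NFE2L2 with 14975 exonic bases.

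The likeness of patterns was measured as the root mean square difference of log2 CPM, centred on each gene's mean, over the 18 libraries. Within the 9, TXNRD1 and SRXN1 were closest, at 0.17, followed by KEAP1 and GCLC, at 0.18, and by GCLM and SRXN1, at 0.20. KEAP1 and GCLC varied little (SD 0.21 and 0.15), which keeps such a difference small. Their Pearson correlation over the 18 libraries was 0.49, beside 0.99 for GCLM and SRXN1. NFE2L2 and GCLM, at 1.54, and HMOX1 and NQO1, at 1.52, were the farthest apart of the 36 pairs. Among the other tested genes, those most like TXNRD1 were PIM2 (0.14), FAM83G (0.14) and MAP4K2 (0.15), and those most like SRXN1 were SMOX (0.12), EFL1 (0.13) and SLC16A3 (0.13). GCLM was most like CHCHD10 (0.15), DHRS7 (0.16) and GLA (0.16), and NQO1 most like NES (0.18), IL27RA (0.19) and UACA (0.20). For HMOX1 the closest were TMEM63C (0.39), KCNK6 (0.46) and BIRC7 (0.48). These differences grow with how much a gene varies, so they do not rank the members by how well they are matched. The SD over the 18 libraries was 1.13 for HMOX1, 0.37 for OSGIN1 and 0.15 for GCLC on the same scale. NFE2L2 was most like PRPF4B (0.11), MRRF (0.12) and HNRNPR (0.12), KEAP1 like UBXN6 (0.043), CHID1 (0.075) and GPAA1 (0.076), GCLC like MAP2K7 (0.085), UBE2G1 (0.095) and SH3GLB1 (0.097), and OSGIN1 like LOC728613 (0.24), ZNF316 (0.25) and USP47 (0.25).

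The genes around NRF2 were read from lists by role, and each count is set beside the share of all genes tested that passed in the same direction. These lists too were chosen with earlier results of these data known, so the shares describe the lists and do not test them. Of 11 other regulators, 8 rose in senescence (72.7%, beside 32.5% of all genes) and 1 fell (9.09%, beside 36%), with a median of 0.64, beside -0.05 over all genes. The small MAF genes, whose proteins pair with NRF2 or BACH factors, were among them: MAFF was higher by 3.00 ± 0.17 on the log2 scale (adjusted p = 2.07e-12), MAFK by 1.47 ± 0.14 (adjusted p = 9.31e-09) and MAFG by 1.30 ± 0.11 (adjusted p = 2.41e-09). BACH2, a repressor related to BACH1, fell, with a log2 fold change of -2.69 ± 0.26 (adjusted p = 1.02e-08). MAFK shares 18.1% of its annotated exonic bases with TMEM184A on the opposite strand.

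SQSTM1 was at 712, 664 and 708 CPM in control and at 1341, 1194 and 1394 CPM in senescent cells with DMSO (0.92 ± 0.093, adjusted p = 2.79e-08). With IMP1088 and DDD86481 it rose further in senescent cells, to 3768, 3786 and 3803 CPM and to 4584, 3663 and 4294 CPM (1.53 ± 0.094 with adjusted p = 2.93e-10, and 1.67 ± 0.095 with adjusted p = 1.05e-10). It also rose in control cells, by 0.90 ± 0.093 with each inhibitor, and the interaction was 0.63 ± 0.13 (adjusted p = 0.00167) and 0.77 ± 0.13 (adjusted p = 0.000259). MRNIP on the opposite strand overlaps 21% of the exonic bases of SQSTM1.

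BACH1, the repressor that haem releases from HMOX1, was at 110, 125 and 91.8 CPM in senescent cells with DMSO, at 71.8, 66.1 and 78.4 CPM with IMP1088 and at 80.5, 75.1 and 87.7 CPM with DDD86481. Both treated groups lay below the lowest DMSO library (-0.60 ± 0.11 with adjusted p = 0.000259, and -0.43 ± 0.11 with adjusted p = 0.00479). In control cells, where BACH1 was looked at after its values were seen, it did not pass (0.10 ± 0.11 with adjusted p = 0.549, and 0.12 ± 0.11 with adjusted p = 0.423), and the interaction was -0.69 ± 0.16 (adjusted p = 0.00389) and -0.55 ± 0.16 (adjusted p = 0.0151). GRIK1-AS2 on the same strand overlaps 14% of the exonic bases of BACH1. NFE2L3, the NRF3 gene, fell with both inhibitors in senescent cells (-1.52 ± 0.11 with adjusted p = 1.48e-09, and -1.68 ± 0.11 with adjusted p = 5.25e-10), and HNRNPA2B1 on the opposite strand covers 28.1% of its exons. It fell in control cells too, from 110 ± 7.75 CPM to 61.9 ± 5.23 and 66.1 ± 3.2 CPM (SD). MAFG rose in control cells, from 49.8 ± 7.83 CPM to 74.4 ± 4.04 and 75.6 ± 2.61 CPM. With DDD86481 in senescent cells it rose from 123 ± 9.57 to 193 ± 24.4 CPM. NFE2L1, the NRF1 gene, rose in senescence (0.89 ± 0.12, adjusted p = 9.86e-07) and did not pass with either inhibitor in senescent cells (-0.10 ± 0.12 with adjusted p = 0.51, and -0.01 ± 0.12 with adjusted p = 0.971). In all, 2 of the 11 regulators rose (18.2%, beside 20.6% of all genes) and 5 fell (45.5%, beside 23.9%) with IMP1088 in senescent cells, and 2 rose and 2 fell with DDD86481 (18.2% each, beside 20.1% and 23.1%). In control cells 3 rose and 4 fell with IMP1088 (27.3% and 36.4%, beside 16.3% and 17.4% of all genes). With DDD86481, 4 rose and 3 fell there (36.4% and 27.3%, beside 17.8% and 18.7%).

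**Figure D4:**
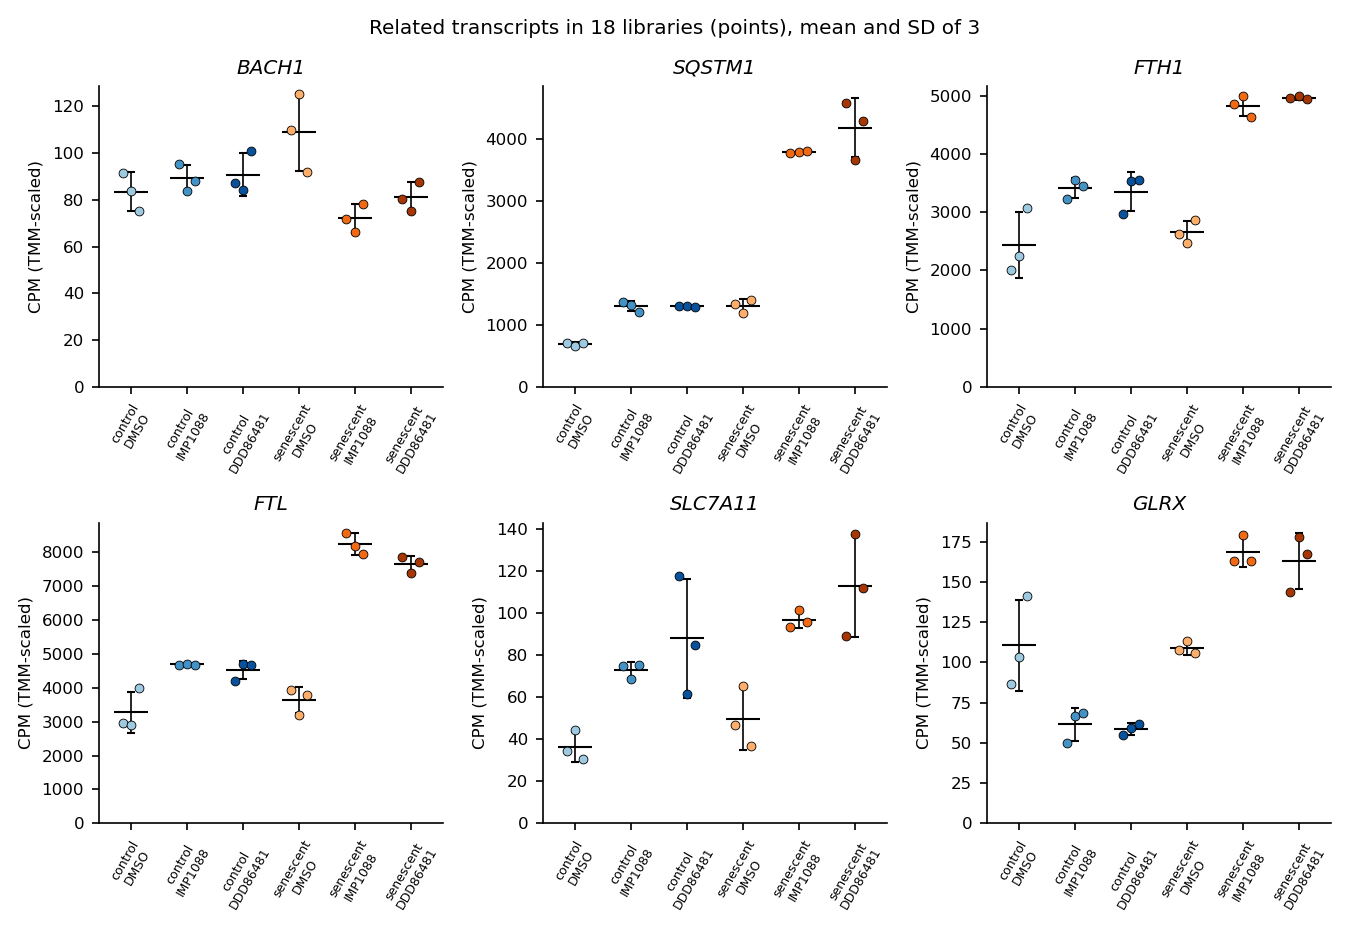
Level in CPM (y axis, from 0) of 6 related transcripts in the 6 groups (x axis), drawn like the plot of the 9 and picked after their values were seen. BACH1 was lower with an inhibitor than with DMSO in senescent cells, and SQSTM1, FTH1, FTL, SLC7A11 and GLRX were higher.

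Haem breakdown frees iron, which ferritin stores. In senescent cells the ferritin light chain FTL went from 3921, 3203 and 3797 CPM with DMSO to 8570, 8183 and 7947 CPM with IMP1088 and to 7854, 7378 and 7693 CPM with DDD86481 (1.18 ± 0.11 with adjusted p = 7.94e-08, and 1.07 ± 0.11 with adjusted p = 2.99e-07). The heavy chain FTH1 went from 2626, 2476 and 2865 CPM to 4853, 4997 and 4634 CPM and to 4959, 4996 and 4938 CPM (0.86 ± 0.12 with adjusted p = 1.12e-05, and 0.90 ± 0.12 with adjusted p = 7.32e-06). For both chains no treated library overlapped the DMSO libraries. FTL and FTH1 have processed copies in the genome that could share reads, and BEST1 on the opposite strand overlaps 63.2% of the exonic bases of FTH1. Of the 12 haem and iron genes, these were the 2 that rose in senescent cells with each inhibitor (16.7%, below the 20.6% and 20.1% of all genes), and 1 fell, HMOX2 (-0.33, adjusted p = 0.0328) with IMP1088 and ALAS1 (-0.24, adjusted p = 0.0249) with DDD86481.

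The rise of FTL was smaller in control cells, at 0.51 ± 0.11 with IMP1088 (adjusted p = 0.00147), and the interaction of FTL was 0.66 ± 0.16 (adjusted p = 0.0046) with IMP1088 and 0.61 ± 0.16 (adjusted p = 0.0075) with DDD86481. FTH1 also rose in control cells with IMP1088, from 2003 to 3076 CPM with DMSO to 3221 to 3562 CPM. Its interaction, looked at after its values were seen, did not pass with either inhibitor. In control cells 5 and 6 of the 12 haem and iron genes rose with IMP1088 and DDD86481 (41.7% and 50%, beside 16.3% and 17.8% of all genes) and 2 fell with each (16.7%, beside 17.4% and 18.7%). In senescence itself 7 of the 12 rose (58.3%, beside 32.5%) and 3 fell (25%, beside 36%), among them the iron exporter SLC40A1, from 22, 20.3 and 17 CPM to 0.926, 0.809 and 1.1 CPM (-4.37 ± 0.20, adjusted p = 6.71e-14), and ALAS1, the first enzyme of haem synthesis, which rose (1.43, adjusted p = 5.68e-12).

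Of 19 glutathione genes tested, 7 rose in senescence (36.8%, near the 32.5% of all genes) and 3 fell (15.8%, beside 36%). In senescent cells 5 rose and 5 fell with IMP1088 (26.3% each, near the 20.6% and 23.9% of all genes), and 6 rose and 6 fell with DDD86481 (31.6% each, beside 20.1% and 23.1%). SLC7A11, the cystine transporter that feeds glutathione synthesis, rose with each inhibitor in both states. In senescent cells it was at 46.7, 65.6 and 36.9 CPM with DMSO, 93.7, 102 and 96 CPM with IMP1088 and 89.2, 138 and 112 CPM with DDD86481 (0.97 ± 0.21 with adjusted p = 0.000832, and 1.19 ± 0.21 with adjusted p = 0.000124). Its rise in control cells was 1.00 ± 0.21 with IMP1088 (adjusted p = 0.00104) and 1.27 ± 0.21 with DDD86481 (adjusted p = 0.000106), and its interaction did not pass (-0.04 ± 0.29 with adjusted p = 0.944, and -0.09 ± 0.29 with adjusted p = 0.851). In control cells 9 and 10 of the 19 fell (47.4% and 52.6%, beside 17.4% and 18.7% of all genes), among them GSS, glutathione synthetase (-0.69 with IMP1088, adjusted p = 6.49e-06, and -0.67 with DDD86481, adjusted p = 9.29e-06), and 2 and 3 rose (10.5% and 15.8%, beside 16.3% and 17.8%).

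The thioredoxin and peroxiredoxin list, with 19 genes tested, was counted in each state. In control cells 11 fell (57.9%, beside 17.4% of all genes) and 0 rose with IMP1088 (beside 16.3%), and 13 fell (68.4%, beside 18.7%) and 1 rose with DDD86481 (5.26%, beside 17.8%), with medians of -0.48 and -0.41. TXN, thioredoxin, the substrate of TXNRD1, fell there (-0.83 ± 0.17, adjusted p = 0.000739, and -0.82 ± 0.17, adjusted p = 0.000781), and GLRX, glutaredoxin, fell by 0.84 ± 0.14 (adjusted p = 0.000134) and 0.91 ± 0.14 on the log2 scale (adjusted p = 5.83e-05). The control DMSO libraries ran from 149 to 287 CPM for TXN and from 86.8 to 141 CPM for GLRX. All libraries of treated control cells lay below them, at up to 126 CPM for TXN and 68.3 CPM for GLRX. No list was counted again without control DMSO replicate 3, so the part of that library in these counts and interactions was not tested. In senescent cells GLRX rose (0.63 ± 0.14 with adjusted p = 0.00108, and 0.58 ± 0.14 with adjusted p = 0.00218), and its interaction was 1.47 ± 0.20 (adjusted p = 2.91e-05) with IMP1088 and 1.49 ± 0.20 (adjusted p = 2.4e-05) with DDD86481. In senescent cells 5 of the 19 rose and 5 fell with IMP1088 (26.3% each), and 4 rose and 5 fell with DDD86481 (21.1% and 26.3%), with medians of -0.19 and -0.10. These shares were near those of all genes, 20.6% and 23.9% with IMP1088 and 20.1% and 23.1% with DDD86481. In the interaction 9 were higher and 2 lower with IMP1088 (47.4% and 10.5%, beside 12.1% and 14.2% of all genes), and 9 were higher and 1 lower with DDD86481 (47.4% and 5.26%, beside 14.4% and 15.9%).

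NADPH is the reductant that TXNRD1 uses and that NQO1 can use. Of 11 genes of NADPH supply, 8 rose (72.7%, beside 32.5% of all genes) and 1 fell (9.09%, beside 36%) in senescence, led by PGD (1.16, adjusted p = 4.33e-10) and TKT (1.05, adjusted p = 4.72e-08) of the pentose phosphate pathway, with a median of 0.41. With each inhibitor 1 rose (9.09%, beside 20.6% and 20.1%) and 5 fell (45.5%, beside 23.9% and 23.1%) in senescent cells. In control cells 0 rose with either inhibitor (beside 16.3% and 17.8%), and 6 fell with IMP1088 (54.5%, beside 17.4%) and 5 with DDD86481 (45.5%, beside 18.7%).

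The remaining lists were read the same way. Of 12 quinone, carbonyl and xenobiotic genes tested, 4 rose and 5 fell in senescence (33.3% and 41.7%, near the 32.5% and 36% of all genes). With IMP1088 and DDD86481, 3 and 2 of these fell in senescent cells (25% and 16.7%, beside 23.9% and 23.1%) and 4 and 5 rose (33.3% and 41.7%, beside 20.6% and 20.1%), led by the aldo-keto reductases AKR1C2 (0.89, adjusted p = 0.0139, and 1.30, adjusted p = 0.000637) and AKR1C1 (0.87, adjusted p = 0.00127, and 1.11, adjusted p = 0.000124), which are near-identical copies whose reads may be split. In control cells 0 rose (beside 16.3% and 17.8%), and 4 and 3 fell (33.3% and 25%, beside 17.4% and 18.7%). Of 10 superoxide dismutase, catalase and glutathione peroxidase genes, 1 rose (10%, beside 32.5% of all genes) and 7 fell (70%, beside 36%) in senescence, with a median of -0.94. GPX3, a secreted peroxidase, was at 38 to 54.4 CPM in control and 0.549 to 0.926 CPM in senescent cells (-6.06 ± 0.27, adjusted p = 4.58e-14). GPX4, which reduces lipid peroxides, rose in senescent cells with IMP1088 (0.56 ± 0.14, adjusted p = 0.00248) and DDD86481 (0.54 ± 0.14, adjusted p = 0.00361). In that list 4 rose with each inhibitor in senescent cells (40%, beside 20.6% and 20.1% of all genes) and 2 fell (20%, beside 23.9% and 23.1%). In control cells 1 rose with each (10%, beside 16.3% and 17.8%), and 3 and 4 fell (30% and 40%, beside 17.4% and 18.7%). The NADPH oxidase list held 4 genes tested, too few for a share to be read against all genes, and 3 rose and 0 fell in senescence, 0 rose and 1 fell with IMP1088 and 1 rose and 1 fell with DDD86481 in senescent cells, and 0 rose while 3 and 4 fell in control cells, among them NOX4 (-0.99, adjusted p = 0.00377, and -1.19, adjusted p = 0.0011).

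**Figure D5:**
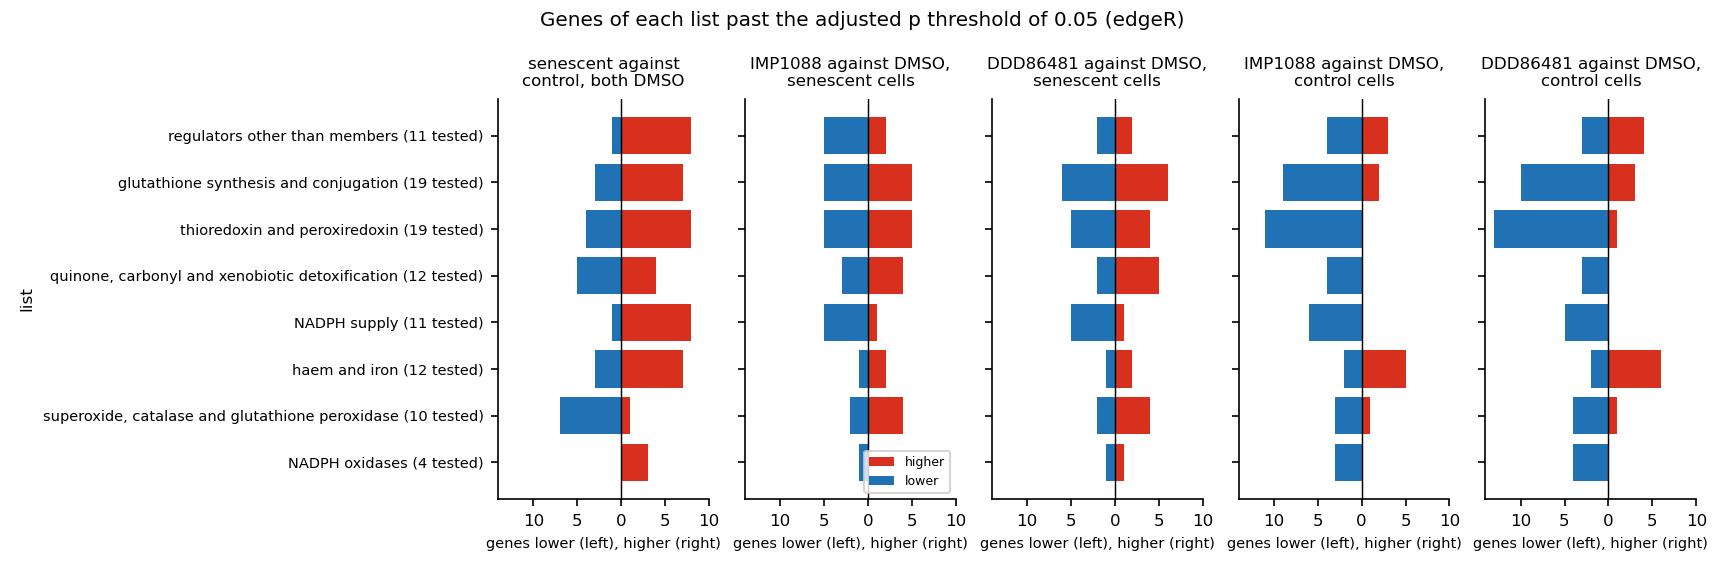
Number of genes past the adjusted p of 0.05 (x axis, lower to the left and higher to the right of 0) in each of 8 lists (y axis, with the number tested) for 5 comparisons (panels). In control cells with an inhibitor, the thioredoxin and peroxiredoxin list had 11 and 13 genes lower of 19, and 5 and 5 lower in senescent cells, beside 17.4% and 18.7% of all genes lower in control cells and 23.9% and 23.1% in senescent cells.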

How the data were processed

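Poly(A) RNA of 18 libraries was analysed from the table of raw counts that the authors deposited, with 28266 rows named by gene symbol and 1 column for each library. The submitters' processing notes list hg38, DRAGEN, STAR 2.7.8a and DESeq2 1.32.0 with no roles, whereas the study's methods describe TopHat and hg19. Which of these made the table, the annotation and the strand setting of the counting are not given in the sources used here, so counts of overlapping genes are uncertain. The study's methods do name a directional library kit and a first-strand library type for the alignment. If the counting kept the strand, genes on the opposite strand would not share reads. Overlaps of at least 10% of exonic bases are given in the text, from GENCODE exons on GRCh37. Positions and promoters came from RefSeq on GRCh38.p14, and 95.5% of symbols matched.

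Groups and replicate numbers came from the labels, which do not say whether replicates were separate cultures. The study's legend to a heatmap of secreted factors in the same cells and treatments counts its replicates as independent experiments. That legend does not name these libraries. P-values measure the spread between these libraries, and how much of that spread is technical was not tested. Within groups, counts differed by more than sampling noise in every pair of libraries.

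In R 4.3.3, filterByExpr of edgeR 4.0.16 kept 14341 genes with 99.96% of counts. TMM scaling was used, and the quasi-likelihood test was run in 1 fit of 18 libraries over 6 groups, with Benjamini-Hochberg adjustment over all genes tested and a threshold of 0.05. Each SE was the log2 fold change over the root of its F statistic. The scripts were first checked on simulated counts.

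The members and lists were chosen with earlier results of these data known. The 9 members were always named, and from each other list at most the 4 called genes with the largest change in a comparison, beside SQSTM1, SLC7A11 and NFE2L1, a set of genes that check the model, and the 3 genes most like each member. Any other gene is said to have been picked after its values were seen. Some results are not reported here. The alternatives were DESeq2 1.42.0, RLE and upper quartile scaling, no filter on low counts, fits of only the groups compared, a replicate block, and leaving out each library in turn. They covered the members and the number of genes called, not the lists. Same-numbered libraries deviated together, with every pair over 0.1, for control DMSO and control IMP1088 (0.39, 0.12 and 0.23) and between the inhibitors in each state (0.10 to 0.27), so the numbers were taken to pair those groups. Libraries of different numbers were not compared in this way. The main tests did not use the pairing, and the fit with the replicate block did. Floors cover counting error only.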

Additional observations from a re-analysis of the deposited data

Results flagged for a closer look

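These values drew attention because the effect of an inhibitor differed between senescent and control cells by the interaction term of edgeR's quasi-likelihood test, adjusted over all genes. HMOX1 had a log2 interaction of 1.54 with IMP1088 (2.49 in senescent and 0.94 in control cells, adjusted p = 0.0138) and of 2.00 with DDD86481 (3.02 and 1.01, adjusted p = 0.0023). TXNRD1 had -0.48 with IMP1088 (-0.59 and -0.11, adjusted p = 0.013) and -0.39 with DDD86481 (-0.43 and -0.04, adjusted p = 0.0338). OSGIN1 had -0.94 with IMP1088 (-0.66 and 0.28, adjusted p = 0.0329), at 4.37 to 13 CPM in the libraries behind it. The interactions of both inhibitors share the DMSO libraries.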

How the results depend on the processing

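With DESeq2, with RLE scaling and with the replicate block, each of the 6, 6, 3, 2, 2, 3 and 2 members called in senescence, with IMP1088 and DDD86481 in senescent cells, with each in control cells, and for the 2 interactions kept its call. DESeq2 added NFE2L2 for IMP1088 in control cells (0.22, adjusted p = 0.0405) and GCLM for the DDD86481 interaction (0.43, adjusted p = 0.0467). With the replicate block 9913 genes were called in senescence, beside 9827 without it. With IMP1088 and DDD86481 in senescent cells 6510 and 6259 were called, beside 6374 and 6189. These comparisons are not among those that the replicate numbers were taken to pair. In no comparison, paired or not, did a member change its call with the block. Upper quartile scaling moved the median of all genes in senescence by -0.15, and there GCLC turned to -0.040 and OSGIN1 to -0.0082, GCLC with DDD86481 in control cells to -0.017, and SRXN1 in the IMP1088 interaction to 0.0093. With it KEAP1 in senescence and TXNRD1 in the DDD86481 interaction (adjusted p = 0.0574) lost their calls, and SRXN1 with IMP1088 in control cells (-0.24, adjusted p = 0.0336) and GCLM in the DDD86481 interaction (0.49, adjusted p = 0.0408) gained one. Fitting only the groups compared called 2716 and 2842 genes with IMP1088 and DDD86481 in control cells, beside 4829 and 5242, and 1 member, HMOX1, in the DDD86481 interaction. Without the filter, 1 gene differed between the inhibitors in senescent cells.

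Leaving out 1 library at a time gave 3 to 5 members called with IMP1088 in senescent cells, 1 to 4 and 1 to 3 with IMP1088 and DDD86481 in control cells, and 1 to 4 and 1 to 3 for their interactions. Small differences that were not called changed sign: OSGIN1 in senescence (-0.012 to 0.30). With IMP1088 in control cells GCLC ran from -0.086 to 0.032 and KEAP1 from -0.11 to 0.051, and with DDD86481 TXNRD1 from -0.11 to 0.054, KEAP1 from -0.14 to 0.030 and GCLC from -0.0079 to 0.10. In senescent cells KEAP1 ran from -0.044 to 0.097 with IMP1088 and from -0.014 to 0.16 with DDD86481. In the IMP1088 interaction SRXN1 ran from -0.082 to 0.046, NFE2L2 from -0.036 to 0.12 and KEAP1 from -0.031 to 0.15, and in that of DDD86481 NFE2L2 from -0.036 to 0.13 and GCLC from -0.0068 to 0.15. Between the inhibitors in control cells GCLM ran from -0.10 to 0.13, OSGIN1 from -0.18 to 0.23, HMOX1 from -0.24 to 0.30, SRXN1 from -0.090 to 0.024 and KEAP1 from -0.013 to 0.051, and in senescent cells NFE2L2 from -0.053 to 0.12, KEAP1 from -0.12 to 0.034 and GCLC from -0.0096 to 0.13. The cause of these shifts was not tested. With 3 libraries a group, a difference that did not pass may be one that these libraries could not show.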
